A study of Mus musculus with 29 samples.

Results

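Axon guidance ligands and receptors were taken as the genes of the Eph receptor, ephrin, semaphorin, plexin, neuropilin, Slit, Robo, netrin and Unc5 families and Dcc, by the pattern of their gene symbols. It found 69 genes among the 25239 in the count tables, 35 ligands and 34 receptors, with transmembrane ephrins and semaphorins counted as ligands. Of these, 67 passed the filter on low counts, as did 15383 genes in all. The levels come from RNA sequencing of mouse embryos at stage E11.5, in 4 groups of 2 replicates: wild-type forebrain, forebrain of embryos with the hs267-853 knockout, wild-type midbrain, and midbrain of embryos with the hs654 knockout. Both knockouts remove enhancers, stretches of DNA that raise transcription of genes elsewhere, so no gene's own count checks the genotype, and whether hs267-853 stands for 1 deleted enhancer or 2 was not established. Each replicate is polyA RNA of several dissected samples of 1 tissue and genotype, pooled to reach a stated minimum of cells, so p-values measure the spread between pools, which may be technical. The strain, sex and number of embryos were not given in the sources used here. The series also holds 21 samples of capture Hi-C, which were not analysed here.

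Axon guidance genes encode the cues that steer growing axons and the receptors that read them on the growth cone. Slits bind Robo receptors and repel, netrin attracts through Dcc and repels through Unc5 receptors, semaphorins act through plexins with neuropilins as coreceptors of the secreted class, and ephrins act on Eph receptors by cell contact. In the embryonic midbrain these cues act at the floor plate, in the early commissures and in the later map of retinal axons. In the forebrain they border the tracts that leave the cortex and thalamus. Many of them also act in blood vessels and in the surrounding mesenchyme.

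The stretch of DNA before the start of transcription is shown for 5 of the genes, because they include genes higher and lower in forebrain and windows rich and poor in CG. The sequences are from RefSeq, build GRCm38.p6, 5′ to 3′ on the strand of the gene, and hold the bases of a window of 250 before the start that lie outside the annotated gene. CG dinucleotides are in capitals.
Epha8, chr4:136956860-136957066, minus strand: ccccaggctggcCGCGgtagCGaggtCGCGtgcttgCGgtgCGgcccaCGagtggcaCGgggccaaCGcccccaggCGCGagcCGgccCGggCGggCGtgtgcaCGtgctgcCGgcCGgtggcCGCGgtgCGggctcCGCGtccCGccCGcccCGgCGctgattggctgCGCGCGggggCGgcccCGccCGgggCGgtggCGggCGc
Efna2, chr10:80179232-80179481, plus strand: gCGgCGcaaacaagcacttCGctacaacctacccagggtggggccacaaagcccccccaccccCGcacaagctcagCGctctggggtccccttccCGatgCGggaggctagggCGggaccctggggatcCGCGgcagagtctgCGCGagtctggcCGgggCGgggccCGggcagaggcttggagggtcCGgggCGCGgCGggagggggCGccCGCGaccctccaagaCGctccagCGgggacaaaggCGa
Efnb2, chr8:8661243-8661492, minus strand: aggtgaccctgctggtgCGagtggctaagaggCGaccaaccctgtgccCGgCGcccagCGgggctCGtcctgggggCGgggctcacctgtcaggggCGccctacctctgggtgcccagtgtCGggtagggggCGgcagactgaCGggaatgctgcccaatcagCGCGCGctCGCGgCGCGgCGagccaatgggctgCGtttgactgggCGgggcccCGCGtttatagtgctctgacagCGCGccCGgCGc
Sema5a, chr15:32244563-32244812, plus strand: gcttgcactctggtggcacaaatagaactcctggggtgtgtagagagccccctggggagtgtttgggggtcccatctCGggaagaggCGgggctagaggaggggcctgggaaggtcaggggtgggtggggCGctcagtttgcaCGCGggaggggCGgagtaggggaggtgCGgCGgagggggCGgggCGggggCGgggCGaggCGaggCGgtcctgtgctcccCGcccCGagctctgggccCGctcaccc
Sema4a, chr3:88461183-88461432, minus strand: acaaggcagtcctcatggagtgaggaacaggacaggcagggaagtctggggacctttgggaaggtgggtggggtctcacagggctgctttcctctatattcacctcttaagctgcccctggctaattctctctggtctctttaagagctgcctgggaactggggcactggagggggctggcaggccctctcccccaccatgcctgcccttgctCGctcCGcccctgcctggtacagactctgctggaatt
Epha8 and Efna2 were lower in forebrain than in midbrain and Efnb2 and Sema5a higher, yet all 4 of these stretches are rich in CG. They hold 37, 25, 27 and 17 CG, against 2 in the stretch of Sema4a, which was lower in forebrain. RefSeq gave a window for 59 of the 69 genes, with a median of 16 CG and 64.8% G and C, against 6 CG and 52% over all 27018 windows in the table. The windows of members higher and lower in forebrain were alike in this, with medians of 16 and 18 CG. The homeodomain core TAATTA was in 3 of the 59 windows (5.08%, against 4.91% of all windows) and the Otx-type core TAATCC, searched on both strands, was in 2 (3.39% against 6.37%). The E-box CAGCTG was in 10 (16.9% against 12.7%). A match only describes the letters of the window.

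The total count over genes ran from 9051632 to 18024406 per library, and 68 or 69 of the 69 genes had at least 1 count in each. Levels are given as CPM, counts scaled to a common library total with factors from the trimmed mean of M values (TMM), always for replicate 1 and then replicate 2, and they compare 1 gene across libraries, not genes with each other. A floor of 3 counts corresponds to 0.170 to 0.328 CPM. Regional markers, chosen with earlier results of these data known, went with the tissue labels. All 10 forebrain genes, among them Emx2 and Dlx2, were higher in wild-type forebrain, and all 10 midbrain-hindbrain genes, among them En1 and Pax7, were lower. The knockout forebrain library 1 stood apart from the other forebrain libraries on the second principal component of all genes, at 33.7 against -18.3 to -3.18. Wild-type and knockout replicates differed by more than counting noise in every group. In a principal component analysis of the 67 genes alone, the first component carried 91.6% of the variance and separated the tissues in all 8 libraries. The first component of all genes tested carried 72.1% and separated the tissues in all 8 libraries as well.

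In wild-type embryos, axon guidance genes differed between forebrain and midbrain in both directions, and more were lower in forebrain. The test (edgeR quasi-likelihood, adjusted over all genes tested, threshold 0.05) was passed by 43 of the 67 genes (64.2%), against 29.6% of all genes tested. An unadjusted p under 0.05 was found for 51 of the 67 (76.1%), against 39.7% of all genes. The genes higher in forebrain numbered 13 and the lower ones 30, against 14.3% and 15.3% of all genes. The median log2 fold change, forebrain over midbrain, was -0.31 over the 67 genes and 0.0012 over all genes. Of the 34 ligands tested, 5 were higher and 13 lower. Of the 33 receptors tested, 8 were higher and 17 lower. By family, EphA receptors, Slits, netrin-1, Dcc, Unc5 receptors and class 6 semaphorins were mostly lower in forebrain, while the ephrin-B ligands Efnb1 and Efnb2 were higher. The largest differences were in Epha8 and Epha10 on the lower side, and in Sema5a and Efnb2 on the higher. In 60 of the 67 genes (89.6%) the wild-type pools of the 2 tissues did not overlap, against 65.9% of all genes. Of the 43 calls, 35 held in each of the 14 alternatives run, and the other 8 are given below with the library that ends them. With no filter on low counts, the calls of this comparison also took in Epha1, Efna1, Robo4, Sema3c, Sema4b, Sema4g and Nrp1. The same genes were added without knockout forebrain replicate 1 or without replicate 2.

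Markers of other features of the tissue moved with this comparison. All 10 neuronal markers, among them Tubb3 and Dcx, were lower in wild-type forebrain: their summed level was 1708 to 1977 CPM there and 3765 to 3897 CPM in wild-type midbrain. Of 8 neural progenitor markers, 2 were higher and 3 lower in forebrain, with sums of 4168 to 4272 and 4783 to 4833 CPM. Of 12 endothelial markers 3 were higher and none lower (395 to 409 against 304 to 382 CPM), of 10 mesenchymal markers 3 were higher and 1 lower (1761 to 2215 against 1416 to 1972 CPM), and of 9 macrophage markers 5 were lower (36.4 to 46.2 against 66.7 to 73.3 CPM). None of 9 erythroid markers passed. Their sums were 4484 to 4842 CPM in wild-type forebrain, against 6791 CPM in wild-type midbrain replicate 1 and 3616 in replicate 2. Of 5 oculomotor and cholinergic markers, 3 were lower. The summed level of that list overlapped between the tissues, at 16.87 to 17.04 CPM in wild-type forebrain and 14.4 to 19.9 in midbrain. The part of all these markers in the differences described here was not tested. In bulk tissue, fewer cells of a type and less RNA per cell cannot be told apart.

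**Figure D1:**
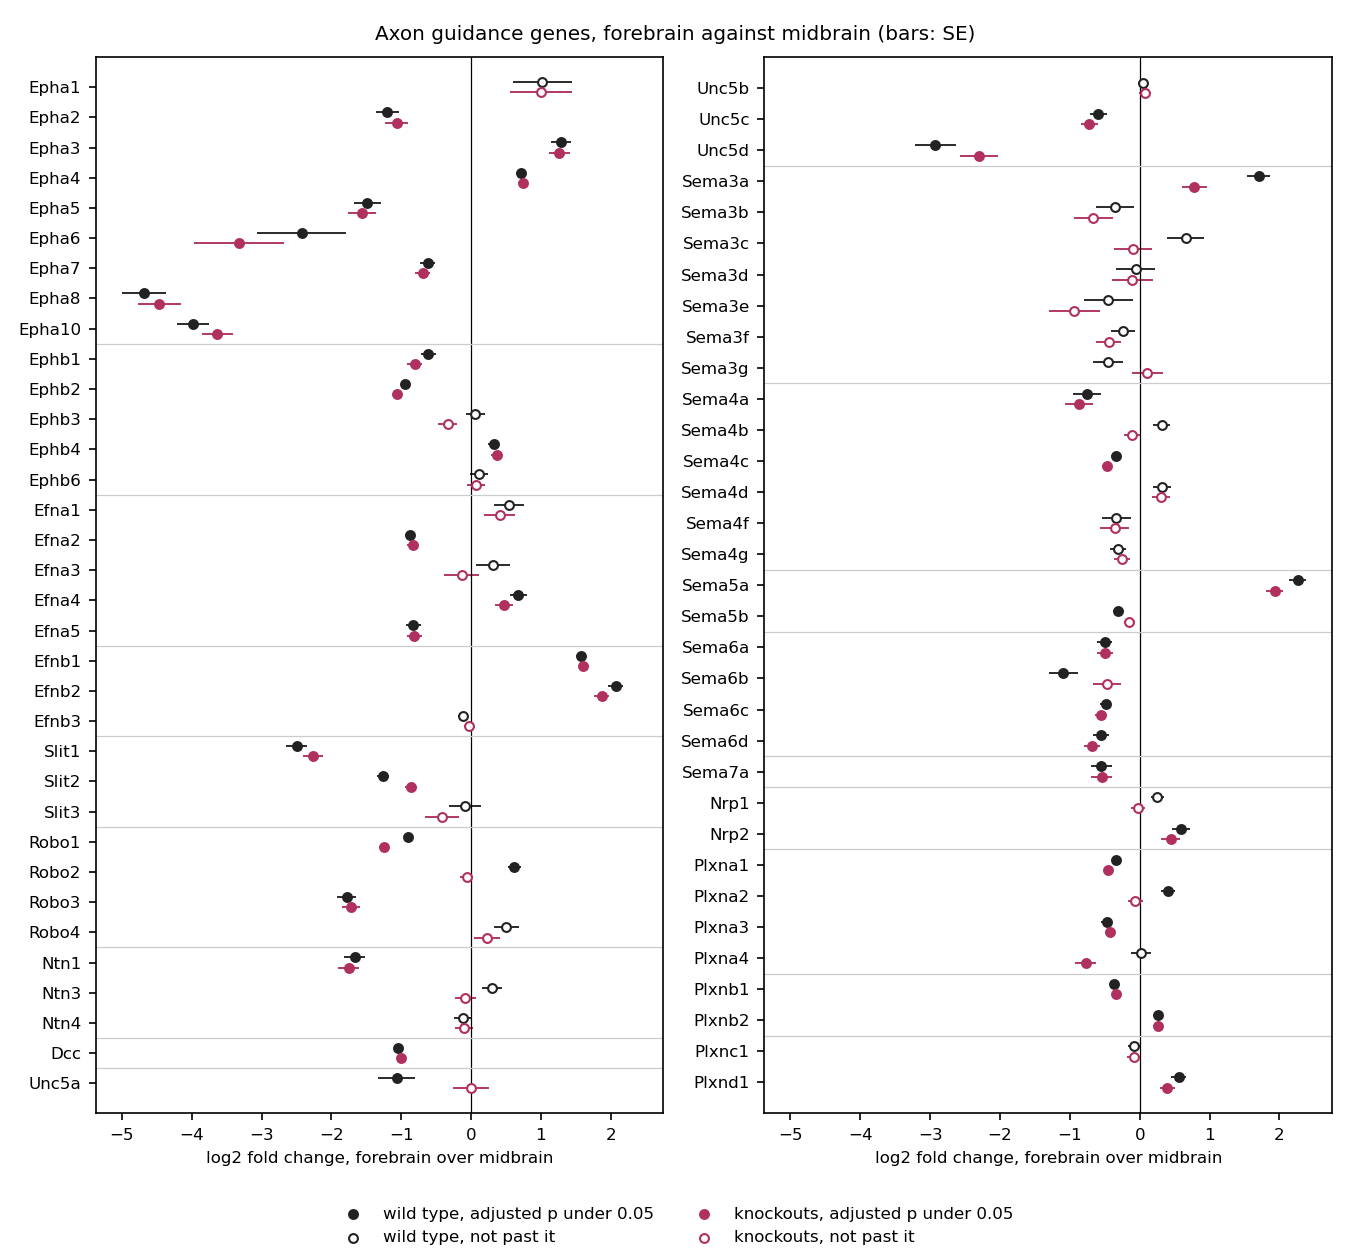
Log2 fold change of forebrain over midbrain for each of the 67 axon guidance genes tested, grouped by family, in wild-type libraries (black) and in knockout libraries (magenta). Points are estimates from 2 pools a side, bars are 1 standard error, and filled points passed an adjusted p of 0.05: 43 did in wild type and 39 in the knockouts, with Epha8 at the far left in both.

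EphA receptors, tyrosine kinases that bind mainly ephrin-A ligands, showed the steepest tissue differences: of 9 tested, 6 were lower in wild-type forebrain and 2 higher. Epha8 (chr4:136929419-136956859) is a receptor known from the developing superior colliculus. It stood at 0.543 and 2.17 CPM in wild-type forebrain, 1.82 and 0.982 in hs267-853 knockout forebrain, 37.0 and 30.7 in wild-type midbrain and 30.6 and 32.6 in hs654 knockout midbrain. All 4 midbrain libraries were far above all 4 forebrain libraries, and wild-type midbrain was 25.7-fold above forebrain (log2 fold change -4.68 ± 0.32 SE, adjusted p = 2.1e-07). The forebrain values rest on 8 and 28 counts.

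Epha10 (chr4:124881530-124917801), which lacks an active kinase, had 20.7 and 20.7 CPM in wild-type midbrain, 18.8 and 17.7 in hs654 knockout midbrain, 1.02 and 1.63 in wild-type forebrain and 1.25 and 1.70 in hs267-853 knockout forebrain. Again no forebrain library came near a midbrain one, a difference of 15.8-fold in wild type (log2 fold change -3.98 ± 0.23 SE, adjusted p = 4e-08). Epha6 was at the limit of detection in forebrain, with 4 and 3 counts in the wild-type and 5 and 1 in the knockout libraries, against 25 and 15 in wild-type and 18 and 21 in knockout midbrain. Its log2 fold change of -2.43 passed the test (adjusted p = 0.0117) but not without wild-type forebrain replicate 1 (0.0725) or 2 (0.0822) or wild-type midbrain replicate 1 (0.0917).

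Smaller differences in the same direction were found for Epha5 (-1.48 ± 0.20 SE on the log2 scale, adjusted p = 0.000107), Epha2 (-1.20 ± 0.16, 0.000101) and Epha7 (-0.62 ± 0.11, 0.000689). Epha5 and Epha7 are receptors graded across the retina and its targets. Epha3 and Epha4 went the other way. Epha3 had a mean of 161 ± 10.7 CPM (SD, n = 2) in wild-type forebrain and 66.2 ± 3.11 in wild-type midbrain (1.29 ± 0.15 SE, 2.39e-05), and Epha4, a receptor for ephrins of both classes, 204 ± 16.7 and 124 ± 5.56 CPM (0.72 ± 0.073 SE, 8.54e-06). Epha1 did not pass: its levels were low, 3.31 ± 1.07 and 1.65 ± 0.371 CPM, with a log2 fold change of 1.02 ± 0.42 SE (adjusted p = 0.0866).

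Among the EphB receptors, which bind mainly ephrin-B ligands, 2 of 5 were lower in wild-type forebrain and 1 higher. Ephb2 (chr4:136647536-136836326), a receptor in commissural and retinal pathfinding, had 207 and 214 CPM in wild-type forebrain, 217 and 223 in hs267-853 knockout forebrain, 397 and 416 in wild-type midbrain and 455 and 465 in hs654 knockout midbrain. The 2 tissues did not overlap and replicates lay close together (log2 fold change -0.95 ± 0.052 SE, adjusted p = 3.05e-08, a 1.93-fold difference). Ephb1 (chr9:101922128-102354693), needed for the uncrossed retinal projection, had 52.7 and 47.0 CPM in wild-type midbrain, 62.0 and 64.0 in hs654 knockout midbrain, 31.8 and 33.5 in wild-type forebrain and 39.3 and 32.6 in hs267-853 knockout forebrain. It was lower in every forebrain library (log2 fold change -0.61 ± 0.11 SE, adjusted p = 0.000776). Ephb4, the venous receptor of ephrin-B2, was higher in forebrain by 0.32 ± 0.078 SE on the log2 scale (adjusted p = 0.00713), which was lost without wild-type forebrain replicate 1 (0.0526) or wild-type midbrain replicate 1 (0.0886). Wild-type midbrain replicate 1 also held the lowest sums of endothelial markers (304 CPM) and of mesenchymal markers among the midbrain libraries (1416 CPM). It held the highest sum of erythroid markers as well (6791 CPM). The part of these markers was not tested. Ephb3 (0.063) and the kinase-inactive Ephb6 (0.12) did not pass.

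Of the ephrin-A ligands, which are held in the membrane by a lipid anchor, 2 of 5 were lower in wild-type forebrain and 1 higher. Efna2 (chr10:80179482-80190010) had 68.0 and 60.7 CPM in wild-type forebrain, 67.3 and 65.7 in hs267-853 knockout forebrain, 121 and 115 in wild-type midbrain and 122 and 115 in hs654 knockout midbrain. Efna5 (chr17:62602957-62881317) had 54.2 and 46.6 CPM in wild-type forebrain, 43.2 and 54.0 in hs267-853 knockout forebrain, 87.7 and 92.0 in wild-type midbrain and 89.6 and 80.4 in hs654 knockout midbrain. Both are ligands that later repel retinal axons in the tectum, and both were lower in every forebrain library than in any midbrain library (log2 fold change -0.88 ± 0.075 SE, adjusted p = 1.75e-06 for Efna2, and -0.83 ± 0.11 SE, 7.98e-05, for Efna5). Efna4 went the other way, with 25.0 ± 3.11 CPM (SD, n = 2) in wild-type forebrain and 15.6 ± 0.921 in midbrain (log2 fold change 0.68 ± 0.13 SE, adjusted p = 0.00132). Efna1 (0.55, adjusted p = 0.0762) and Efna3 (0.31, 0.381) did not pass.

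Of the 3 transmembrane ephrin-B ligands, 2 were higher in wild-type forebrain. Efnb2 (chr8:8617235-8661242), also the arterial partner of Ephb4, had 289 and 241 CPM in wild-type forebrain, 262 and 268 in hs267-853 knockout forebrain, 55.9 and 71.0 in wild-type midbrain and 71.7 and 73.6 in hs654 knockout midbrain. The lowest forebrain library was more than 3 times the highest midbrain library, and the wild-type difference was 4.19-fold (log2 fold change 2.07 ± 0.10 SE, adjusted p = 1.46e-08). Efnb1 (chrX:99136061-99149022) had 362 and 361 CPM in wild-type forebrain, 389.6 and 337 in hs267-853 knockout forebrain, 117 and 127 in wild-type midbrain and 125 and 114 in hs654 knockout midbrain, with no overlap between tissues (log2 fold change 1.57 ± 0.077 SE, adjusted p = 1.06e-08). Efnb3, a midline ligand, did not pass (-0.12, adjusted p = 0.268). Of the EphB receptors, Ephb4 was higher in forebrain like these ligands, and Ephb1 and Ephb2 were lower.

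Slit ligands, secreted repellents of the midline, were lower in wild-type forebrain for 2 of 3 members. Slit1 (chr19:41597824-41747275) had 59.4 and 59.7 CPM in wild-type midbrain, 57.5 and 67.4 in hs654 knockout midbrain, 10.4 and 10.7 in wild-type forebrain and 15.1 and 10.7 in hs267-853 knockout forebrain. Its midbrain level was 5.65 times that of forebrain in wild type (log2 fold change -2.50 ± 0.15 SE, adjusted p = 5.14e-08). Slit2 (chr5:47981291-48307735) had 158 and 164 CPM in wild-type midbrain, 159 and 161 in hs654 knockout midbrain, 60.1 and 74.4 in wild-type forebrain and 84.9 and 91.0 in hs267-853 knockout forebrain, and every forebrain library was below every midbrain one (log2 fold change -1.26 ± 0.088 SE, adjusted p = 2.54e-07). Slit3 did not pass, at 18.5 ± 2.63 and 19.7 ± 1.14 CPM (-0.087, adjusted p = 0.814).

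The Robo receptors split. Robo3 (chr9:37416045-37433436), which lets commissural axons cross the midline, had 112 and 96.1 CPM in wild-type midbrain, 119.9 and 93.8 in hs654 knockout midbrain, 32.6 and 27.9 in wild-type forebrain and 35.5 and 29.3 in hs267-853 knockout forebrain. Robo1 (chr16:72027518-73047491), a Slit receptor of crossing and longitudinal axons, had 194 and 191 CPM in wild-type midbrain, 210.1 and 212 in hs654 knockout midbrain, 107 and 99.9 in wild-type forebrain and 84.1 and 94.2 in hs267-853 knockout forebrain. Both were lower in forebrain in all libraries (log2 fold change -1.78 ± 0.13 SE, adjusted p = 4.69e-07 for Robo3, and -0.90 ± 0.068 SE, 5.46e-07, for Robo1). Robo2, also on chromosome 16, went the other way in wild type, with 78.8 and 65.7 CPM in forebrain and 47.9 and 46.2 in midbrain (log2 fold change 0.62 ± 0.096 SE, adjusted p = 0.000366). Robo4, the endothelial member, did not pass (0.51, adjusted p = 0.0529). It did without wild-type forebrain replicate 2 (0.69, 0.0338).

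Netrin-1, Dcc and 3 of 4 Unc5 receptors were lower in wild-type forebrain. Ntn1 (chr11:68209364-68386826), the floor plate attractant, had 199 and 216 CPM in wild-type midbrain, 215 and 239.9 in hs654 knockout midbrain, 70.2 and 60.4 in wild-type forebrain and 81.9 and 52.5 in hs267-853 knockout forebrain. Midbrain was 3.17 times forebrain in wild type and the tissues did not overlap (log2 fold change -1.67 ± 0.15 SE, adjusted p = 2.89e-06). Ntn3 (0.30, adjusted p = 0.141) and Ntn4 (-0.12, 0.536) did not pass. Ntn5 was too low to test, with 9 and 10 counts in wild-type forebrain and 3 and 1 in wild-type midbrain.

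Dcc, the attractive netrin receptor, had 251 and 245 CPM in wild-type midbrain, 283 and 274 in hs654 knockout midbrain, 120.4 and 121 in wild-type forebrain and 149 and 131 in hs267-853 knockout forebrain. It was lower in each forebrain library, a 2.06-fold difference in wild type (log2 fold change -1.04 ± 0.066 SE, adjusted p = 1.16e-07). Of the 4 Unc5 receptors, through which netrin repels, 3 were lower in wild-type forebrain too. Unc5d (chr8:28646717-29219671) had 10.2 and 7.99 CPM in wild-type midbrain, 7.92 and 10.5 in hs654 knockout midbrain, 1.02 and 1.39 in wild-type forebrain and 2.04 and 1.64 in hs267-853 knockout forebrain, a 7.60-fold difference in wild type with no overlap (log2 fold change -2.93 ± 0.30 SE, adjusted p = 8.97e-06). Unc5c was lower by a smaller step (log2 fold change -0.59 ± 0.12 SE, adjusted p = 0.00253), and Unc5b did not pass (0.048, adjusted p = 0.684).

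Unc5a was low in all libraries and had 2.65 and 2.94 CPM in wild-type forebrain, 5.62 and 4.58 in hs267-853 knockout forebrain, 6.01 and 5.67 in wild-type midbrain and 4.22 and 6.12 in hs654 knockout midbrain. The wild-type tissues stood apart (log2 fold change -1.07 ± 0.27 SE, adjusted p = 0.0087), but the 4 knockout libraries overlapped. The wild-type call was lost without wild-type forebrain replicate 1 (0.0605) or wild-type midbrain replicate 1 (0.0557).

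**Figure D2:**
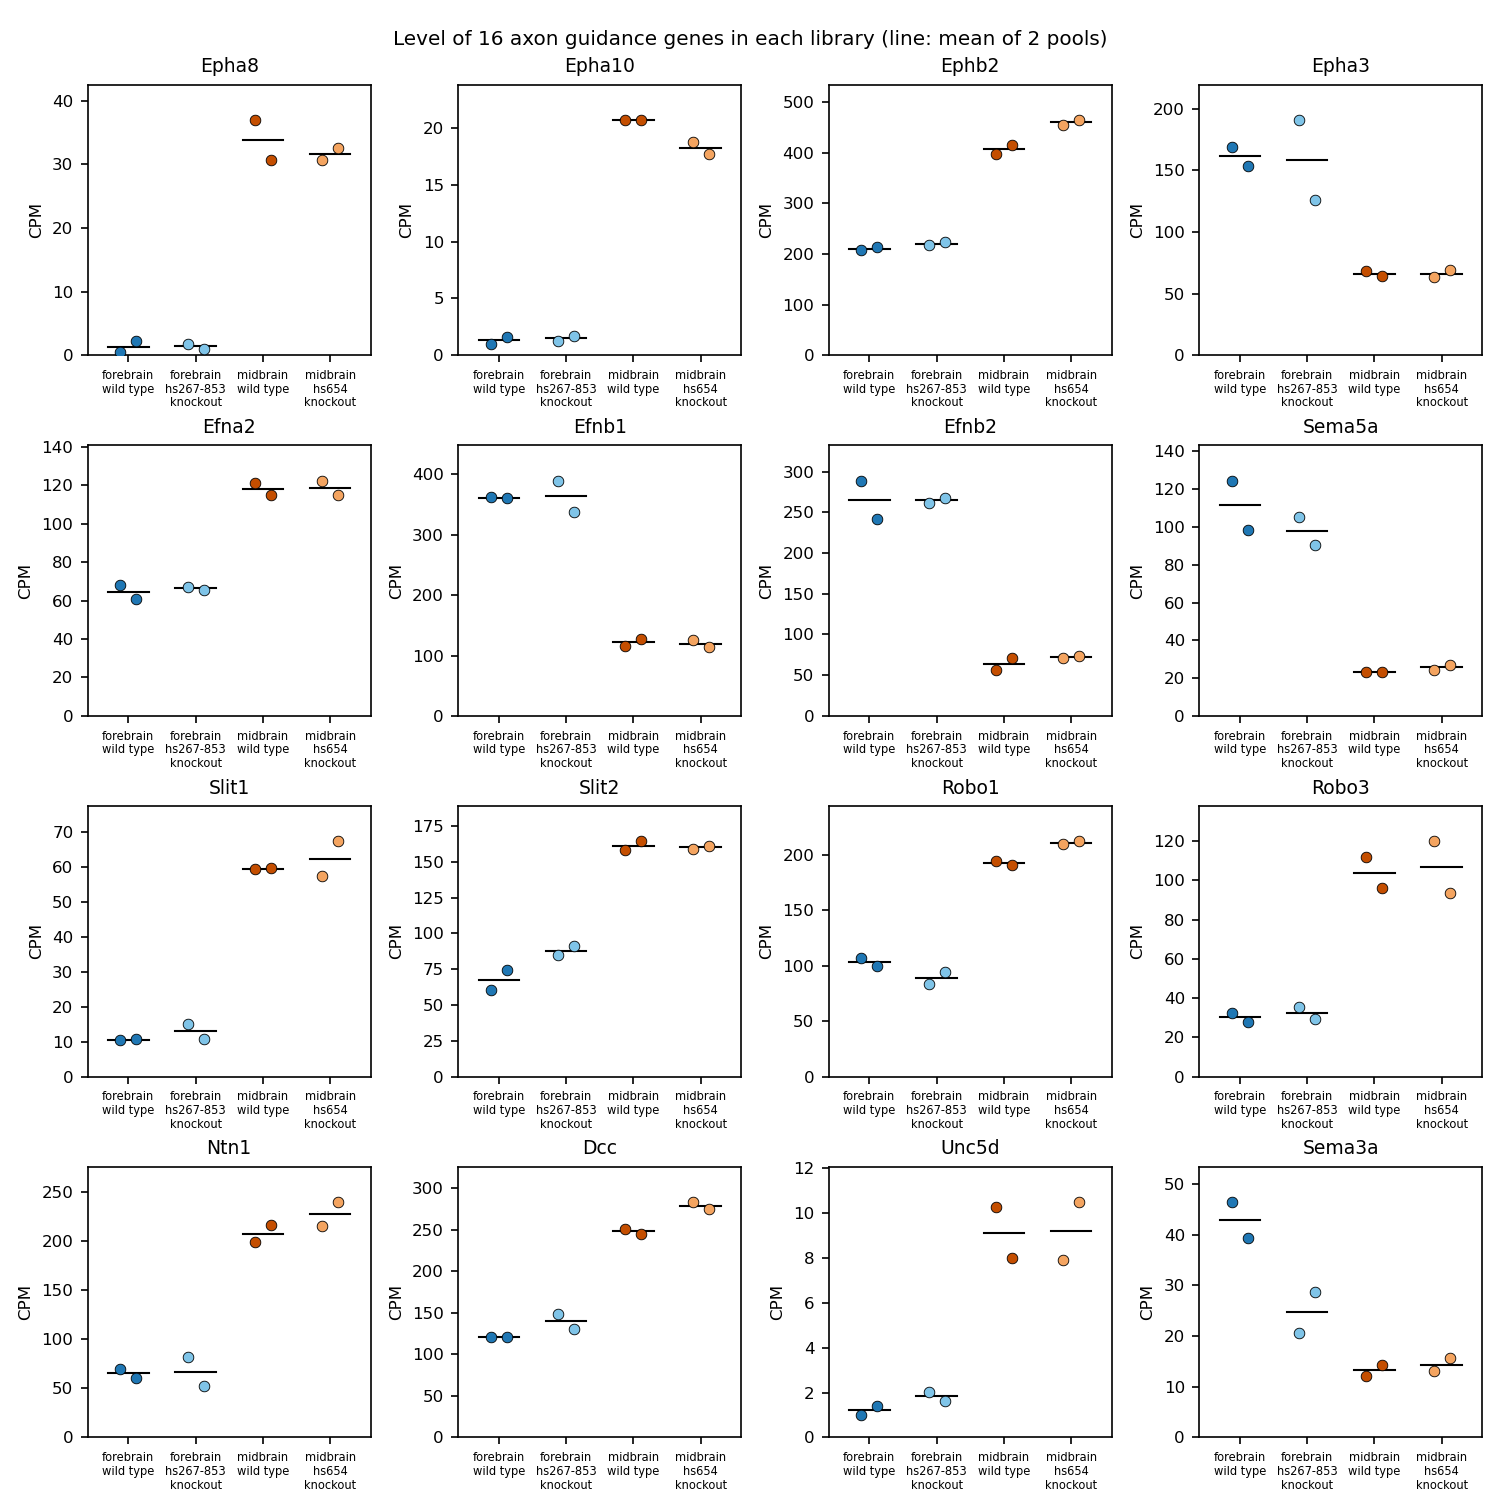
Level in CPM of 16 axon guidance genes in each of the 8 libraries, by tissue and genotype. Each point is 1 pool and each line the mean of 2, on a linear axis from 0. Forebrain and midbrain do not overlap in any of the 16 genes, Efnb1, Efnb2, Epha3, Sema5a and Sema3a being the ones with forebrain on top. The 16 were picked from genes that passed in wild type, which favours such a lack of overlap. Wild-type pools did not overlap in 89.6% of the 67 genes and in 65.9% of all genes tested.

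Secreted class 3 semaphorins, which signal through neuropilins and class A plexins, differed in 1 of 7 members. Sema3a (chr5:13124822-13603485), a repellent of many axon types, had 46.4 and 39.3 CPM in wild-type forebrain, 20.5 and 28.7 in hs267-853 knockout forebrain, 12.1 and 14.4 in wild-type midbrain and 13.1 and 15.6 in hs654 knockout midbrain. Wild-type forebrain was the highest group, knockout forebrain lay between, and all forebrain libraries were above all midbrain ones (log2 fold change 1.70 ± 0.17 SE, adjusted p = 7.21e-06 in wild type). The others did not pass: Sema3b (-0.36), Sema3c (0.66, adjusted p = 0.0809), Sema3d (-0.056), Sema3e (-0.45), Sema3f (-0.24) and Sema3g (-0.45). Sema3c passed without wild-type midbrain replicate 2 (0.98, 0.0423) and Sema3g without wild-type midbrain replicate 1 (-0.75, 0.0315).

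The membrane-bound semaphorins of classes 4, 6 and 7 were lower in wild-type forebrain wherever they passed, in 7 of 11 genes. Of all genes tested, 15.3% passed as lower. In class 4 alone 2 of 6 passed, and in class 5, given below, Sema5a went the other way. Sema4a, known from vision and immunity, had 8.55 and 7.20 CPM in wild-type forebrain, 7.43 and 7.40 in hs267-853 knockout forebrain, 11.8 and 14.9 in wild-type midbrain and 15.6 and 11.4 in hs654 knockout midbrain, with no overlap in wild type (log2 fold change -0.76 ± 0.20 SE, adjusted p = 0.0107). That call was lost without wild-type forebrain replicate 2 (-0.64, 0.0888) or wild-type midbrain replicate 2 (-0.58, 0.0934). Sema4c, a plexin-B2 ligand, had 71.4 and 68.2 CPM in wild-type forebrain, 73.1 and 70.6 in hs267-853 knockout forebrain, 87.0 and 89.8 in wild-type midbrain and 96.8 and 103 in hs654 knockout midbrain (log2 fold change -0.34 ± 0.069 SE, adjusted p = 0.00258). Both genes were higher in every midbrain library than in any forebrain library. Sema4b (0.31), Sema4d (0.32), Sema4f (-0.33) and Sema4g (-0.31) did not pass.

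All 4 class 6 semaphorins tested, transmembrane ligands that bind class A plexins, were lower in wild-type forebrain. Sema6b had 14.0 and 15.3 CPM in wild-type midbrain, 15.7 and 13.2 in hs654 knockout midbrain, 8.01 and 5.65 in wild-type forebrain and 12.1 and 8.84 in hs267-853 knockout forebrain. The wild-type difference was the largest of the class (log2 fold change -1.09 ± 0.21 SE, adjusted p = 0.00146), and knockout forebrain library 1 came closest to midbrain. Sema6d had 44.7 and 53.0 CPM in wild-type midbrain, 54.9 and 53.6 in hs654 knockout midbrain, 36.2 and 29.8 in wild-type forebrain and 32.2 and 35.6 in hs267-853 knockout forebrain (log2 fold change -0.56 ± 0.12 SE, adjusted p = 0.00278). For both genes every forebrain library was below every midbrain one. Sema6a (-0.50 ± 0.11 SE, 0.00372) and Sema6c (-0.49 ± 0.085 SE, 0.000808) differed by about as much as Sema6d. Sema7a, the lipid-anchored member, had 16.5 and 16.9 CPM in wild-type midbrain, 18.8 and 18.5 in hs654 knockout midbrain, 12.2 and 10.6 in wild-type forebrain and 14.2 and 11.2 in hs267-853 knockout forebrain (log2 fold change -0.55 ± 0.15 SE, adjusted p = 0.0161), a call lost without wild-type forebrain replicate 2 (0.121) or either wild-type midbrain library (0.0626 and 0.0677). Its tissues did not overlap in any of the 8 libraries.

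Class 5 semaphorins, which carry thrombospondin repeats, went in opposite directions. Sema5a (chr15:32244813-32696341) had 125 and 98.2 CPM in wild-type forebrain, 105 and 90.2 in hs267-853 knockout forebrain, 23.2 and 23.2 in wild-type midbrain and 24.3 and 27.1 in hs654 knockout midbrain, a 4.80-fold difference in wild type with all forebrain libraries far above midbrain (log2 fold change 2.26 ± 0.12 SE, adjusted p = 2.33e-08). Sema5b had 104 and 97.7 CPM in wild-type forebrain, 121 and 103 in hs267-853 knockout forebrain, 126 and 123 in wild-type midbrain and 123 and 126 in hs654 knockout midbrain, a small difference towards midbrain (log2 fold change -0.31 ± 0.077 SE, adjusted p = 0.00968) that was lost without wild-type forebrain replicate 2 (0.0909) or wild-type midbrain replicate 1 (0.0631).

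Neuropilins and plexins, the semaphorin receptors, differed by small amounts and in both directions. Nrp2, the coreceptor mainly of Sema3f, had 119 and 117 CPM in wild-type forebrain, 106 and 122 in hs267-853 knockout forebrain, 64.1 and 93.5 in wild-type midbrain and 81.0 and 86.5 in hs654 knockout midbrain (log2 fold change 0.59 ± 0.13 SE, adjusted p = 0.00455). All forebrain libraries were above all midbrain ones. Without wild-type midbrain replicate 1, its lowest library, the difference fell to 0.33 (adjusted p = 0.0384). Nrp1, the coreceptor of Sema3a, was at 52.4 ± 0.712 and 44.1 ± 4.29 CPM (SD, n = 2) in wild-type forebrain and midbrain and did not pass (0.25, adjusted p = 0.0594). It passed in limma-voom (0.0482) and without wild-type midbrain replicate 2 (0.0385).

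Among class A plexins, the signalling receptors for class 3 and 6 semaphorins, Plxna3 had 70.4 and 68.0 CPM in wild-type forebrain, 69.5 and 78.0 in hs267-853 knockout forebrain, 97.0 and 95.1 in wild-type midbrain and 101 and 96.6 in hs654 knockout midbrain (log2 fold change -0.47 ± 0.075 SE, adjusted p = 0.000402), with every forebrain library below every midbrain one. Plxna1 was lower in wild-type forebrain as well (log2 fold change -0.34 ± 0.053 SE, adjusted p = 0.000406). Plxna2 had 129.7 and 104 CPM in wild-type forebrain, 101 and 85.5 in hs267-853 knockout forebrain, 86.0 and 90.7 in wild-type midbrain and 94.6 and 99.8 in hs654 knockout midbrain, higher in wild-type forebrain (log2 fold change 0.41 ± 0.10 SE, adjusted p = 0.00937). That call was lost without wild-type forebrain replicate 1 (0.24, 0.137) or wild-type midbrain replicate 1 (0.36, 0.0796). Plxna4 did not pass in wild type (0.017, adjusted p = 0.944).

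Plxnb1, the receptor of Sema4d, had 292 and 275 CPM in wild-type midbrain, 319.8 and 296 in hs654 knockout midbrain, 219 and 222 in wild-type forebrain and 244 and 245 in hs267-853 knockout forebrain (log2 fold change -0.36 ± 0.057 SE, adjusted p = 0.000403). Plxnb2 had 342 and 335 CPM in wild-type forebrain, 330.1 and 361 in hs267-853 knockout forebrain, 266 and 301 in wild-type midbrain and 299 and 279 in hs654 knockout midbrain, slightly higher in wild-type forebrain (log2 fold change 0.26 ± 0.068 SE, adjusted p = 0.013). The tissues did not overlap for Plxnb1 or for Plxnb2. Without wild-type forebrain replicate 1 it no longer passed (0.0744), nor without wild-type midbrain replicate 1 (0.16, 0.155). Plxnb3 was too low to test, with at most 8 counts in a library.

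Plxnd1, a receptor for Sema3e in vessels, had 151 and 151 CPM in wild-type forebrain, 147 and 140.1 in hs267-853 knockout forebrain, 87.7 and 118 in wild-type midbrain and 113 and 105 in hs654 knockout midbrain (log2 fold change 0.56 ± 0.10 SE, adjusted p = 0.00141), all forebrain libraries above all midbrain ones. Its wild-type difference shrank to 0.35 without wild-type midbrain replicate 1. That library held the lowest endothelial sum, the lowest mesenchymal sum among midbrain libraries and the highest erythroid sum. The part of these markers was not tested here either. Plxnc1, the receptor of Sema7a, did not pass (-0.083, adjusted p = 0.536).

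The tissue difference could be read a second time in the 4 knockout libraries, which share no sample with the wild-type comparison. They differ in the deleted enhancer as well as in tissue. Both comparisons came from 1 model of all 8 libraries and shared each gene's estimate of spread, so their calls are not independent. There 39 of 67 genes passed, against 29.4% of all genes tested, 11 higher and 28 lower in forebrain. All 10 neuronal markers were lower in knockout forebrain as well (1551 to 2208 against 4103 to 4245 CPM), as were 5 of 9 macrophage markers. Of the other lists, 3 progenitor markers were higher and 3 lower of 8, 1 endothelial marker was higher of 12, 2 mesenchymal markers were higher and 1 lower of 10, 2 erythroid markers were higher of 9, and 1 oculomotor or cholinergic marker was higher and 2 lower of 5. Their part was not tested. Of the 43 wild-type calls, 38 passed in the same direction (88.4%, and 97.4% of the 39) and 0 in the opposite one. The knockout pools of the 2 tissues did not overlap in 54 genes (80.6%), against 64.4% of all genes. The share of calls in the same direction over all genes was 73.9% of the wild-type calls and 74.4% of the knockout calls. Epha8 (-4.46), Epha10 (-3.63), Efnb1 (1.60), Efnb2 (1.87), Slit1 (-2.26), Ntn1 (-1.75), Dcc (-0.997) and Sema5a (1.93) had log2 fold changes close to those in wild type. Those of Robo3 (-1.72), Ephb2 (-1.06), Efna2 (-0.84) and Efna5 (-0.81) also passed. So did those of Sema3a (0.78, against 1.70 in wild type), Unc5d (-2.30, against -2.93), Slit2 (-0.86, against -1.26) and Robo1 (-1.25, against -0.90). Epha6 passed at -3.33, resting on the few forebrain counts given above.

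There were 6 genes that passed in only 1 of the 2 tissue comparisons. Robo2, Unc5a, Sema5b, Sema6b and Plxna2 did so in wild type, with log2 fold changes in the knockout libraries of -0.064, -0.0014, -0.15, -0.46 and -0.061. Plxna4 passed in the knockout libraries alone, at -0.77 ± 0.15 SE (adjusted p = 0.00166), and at -0.51 (adjusted p = 0.00497) without knockout forebrain replicate 1. None of the 6 passed the test of the difference between the comparisons, with adjusted p of 0.86 for Robo2 and 0.996 for the other 5. Of the knockout calls, those of Efna4, Sema3a, Sema4a, Sema7a, Nrp2, Plxnb2 and Plxnd1 were lost in at least 1 alternative. Without knockout midbrain replicate 1, Efna4 had an adjusted p of 0.076, Sema3a 0.0844, Sema4a 0.0916, Sema7a 0.0795, Nrp2 0.186, Plxnb2 0.0518 and Plxnd1 0.0597. Without knockout midbrain replicate 2, those of Efna4 (0.0813), Sema7a (0.0761), Nrp2 (0.082), Plxnb2 (0.143) and Plxnd1 (0.109) did not pass. The same held for Sema7a (0.104), Nrp2 (0.08) and Plxnb2 (0.054) without knockout forebrain replicate 2, where the log2 fold change of Sema6a shrank to -0.31. Nrp2 did not pass in DESeq2 either (0.118).

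The 2 knockout forebrain pools also disagreed on genes that had not passed. Leaving out replicate 2 leaves only the pool that stood apart to represent knockout forebrain. The log2 fold changes over knockout midbrain were then -0.58 for Ephb3, -0.98 for Slit3, -0.66 for Sema3c, -1.49 for Sema3e and -0.82 for Sema3f. With replicate 1 left out instead, they were -0.71 for Sema6b and -0.27 for Sema5b, the direction of wild type, and 1.41 for Epha1. These estimates rest on 1 forebrain pool, and how all genes moved in these settings is not given here.

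Genes of the pathway outside these families were followed in 2 lists. Of 18 coreceptors and other guidance cues, 16 were lower in wild-type forebrain and 1 higher, with a median log2 fold change of -0.999. Over all genes tested, 15.3% were lower and 14.3% higher. In the knockout libraries 15 of the 18 were lower and 2 higher, against 14.8% and 14.6% of all genes. Dscam, a netrin receptor (-2.92 ± 0.22 SE, adjusted p = 4.39e-07), Draxin, a secreted repellent that binds netrin and Dcc (-2.19 ± 0.08 SE, 1.1e-09), Cntn2, an adhesion molecule of commissural axons (-2.18 ± 0.13 SE, 6.85e-08), and Ntng1, a lipid-anchored netrin relative (-2.0 ± 0.34 SE, 0.000714), had the largest differences. The neuronal markers given above, also lower in forebrain, had a median of -0.91, and their part here was not tested. Ptk7 was the one higher in forebrain (0.29 ± 0.083 SE, 0.0189).

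Of 32 genes of cytoplasmic signalling below the receptors, 17 were lower in wild-type forebrain and 4 higher, against 15.3% and 14.3% of all genes. Their median was -0.24. Rnd1, a small GTPase that binds plexins (-2.03 ± 0.21 SE, 1.19e-05), Ngef, an exchange factor downstream of EphA receptors (-1.52 ± 0.35 SE, 0.00585), and Srgap3, a GTPase activator that binds Robo (-1.40 ± 0.06 SE, 3.48e-09), were among the lower genes. The 4 higher genes were Dock1 (0.66), Tiam1 (0.58), Farp1 (0.50) and Nck1 (0.36), which act on Rac or link receptors to actin. In the knockout libraries 12 of the 32 were lower and 5 higher, against 14.8% and 14.6% of all genes.

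The 69 genes lie on 19 chromosomes in the RefSeq table of GRCm38.p6, the assembly of mm10, and 11 pairs of neighbours among them are less than 1 Mb apart. Neighbours did not always share a direction. Ephb2 and Epha8 lie 93.1 kb apart on chromosome 4 and were both lower in wild-type forebrain, with log2 fold changes of -0.95 and -4.68. Robo1 and Robo2, 844 kb apart on chromosome 16, went in opposite directions (-0.90 and 0.62). Robo4 and Robo3 are 2.02 kb apart on chromosome 9, and only Robo3 passed. Sema3a lies between Sema3d, 536 kb away, and Sema3e, 422 kb away, on chromosome 5, and was the only one of these 3 that passed. The strand setting of the counting was not given, so reads where a gene overlaps another cannot be assigned with certainty, as for Plxna4 with Plxna4os1, Slit2 with the miRNA gene inside it, Sema3b with Lsmem2, Epha1 with Zyx and Ntn3 with Tbc1d24.

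Midbrain of the hs654 knockout was compared with wild-type midbrain to ask which genes respond to the loss of that enhancer. No axon guidance gene passed the test, as was true of all 15383 genes (0%). An unadjusted p under 0.05 was found for 6 of the 67 genes, or 8.96%, against 3.96% of all genes. DESeq2 and limma-voom also called 0 of the 67. The 3 genes with the smallest p had estimates above 0. Ephb2 had 397 and 416 CPM in wild-type and 455 and 465 in knockout midbrain (log2 fold change 0.18 ± 0.052 SE, unadjusted p = 0.00436, adjusted p = 0.992 in edgeR). Ephb1 had 52.7 and 47.0 against 62.0 and 64.0 CPM (0.34 ± 0.10 SE), and Sema4b 23.5 and 27.5 against 32.0 and 33.5 CPM (0.36 ± 0.12 SE), with the same adjusted p. The log2 fold changes of all 67 genes tested ran from -0.31 for Sema3g to 0.44 for Epha6.

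In these 3 genes both knockout libraries lay above both wild-type ones. Over the 67 genes such a lack of overlap, in either direction, was found in 27 (40.3%), against 36.7% of all genes. Of the genes with a steep tissue difference, Epha8 had a log2 fold change of -0.10 ± 0.22 SE between knockout and wild-type midbrain, Slit1 of 0.066 ± 0.13 and Ntn1 of 0.13 ± 0.14. The summed neuronal markers were 3765 to 3897 CPM in wild-type and 4103 to 4245 CPM in knockout midbrain, with none of the 10 past the test, and their part was not tested.

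**Figure D3:**
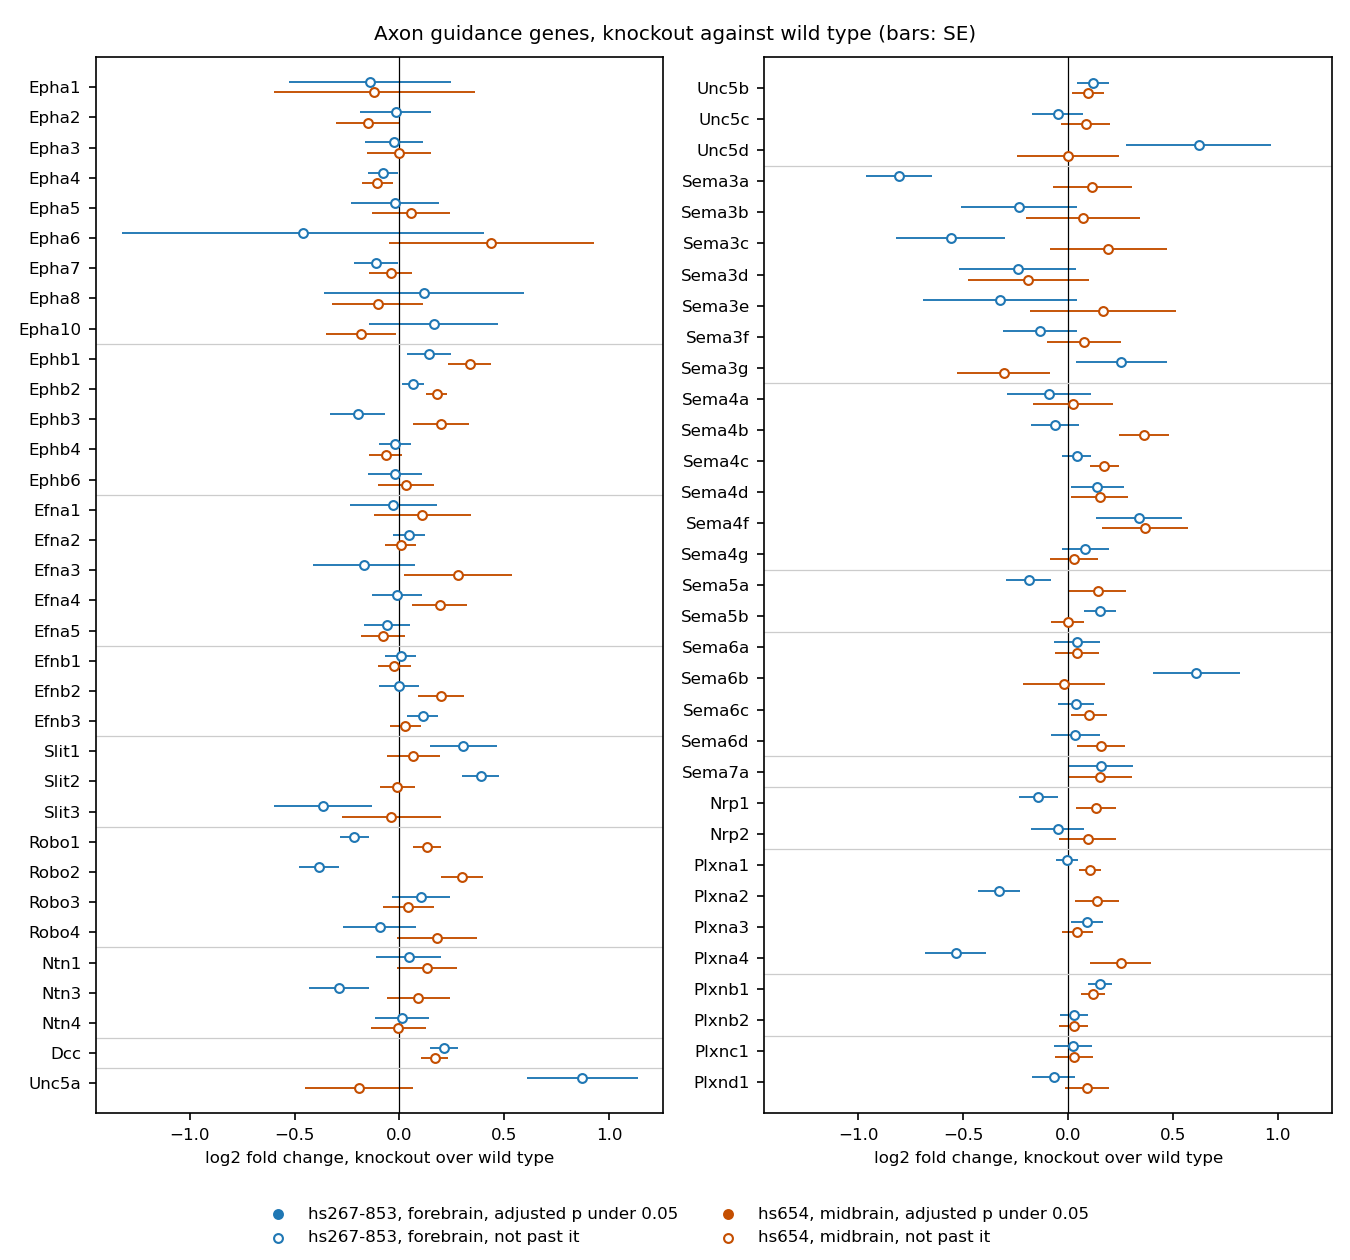
Log2 fold change of knockout over wild type for each of the 67 axon guidance genes tested, in forebrain for hs267-853 (blue) and in midbrain for hs654 (orange). Points are estimates from 2 pools a side, bars are 1 standard error, and all points are open because 0 genes passed an adjusted p of 0.05; Sema3a lies farthest left and Unc5a farthest right in forebrain.

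Forebrain of the hs267-853 knockout was compared with wild-type forebrain in the same way. Again 0 of the 67 genes passed in edgeR, against 2 of all 15383 genes (0.013%). An unadjusted p under 0.05 was found for 10 of the 67 (14.9%), against 4.78% of all genes. DESeq2 called 1, Sema3a, and limma-voom 0. The knockout pools did not overlap the wild-type pools in 20 genes (29.9%), against 31.1% of all genes.

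Sema3a, the class 3 repellent described above, had the smallest p. Its level was 46.4 and 39.3 CPM in wild-type and 20.5 and 28.7 in knockout forebrain (log2 fold change -0.80 ± 0.16 SE, unadjusted p = 0.000211, adjusted p = 0.259 in edgeR). Both knockout pools were below both wild-type pools. The adjusted p was 0.0274 in DESeq2 and 0.00268 without knockout forebrain replicate 2, where the log2 fold change was -1.06. It was 4.42e-07 with no filter on low counts and 0.364 without knockout forebrain replicate 1 (log2 fold change -0.58). Knockout forebrain library 1, the one that stood apart above, held the lowest value. In that library the summed mesenchymal markers were lowest too, 1259 CPM against 1937 in the other knockout pool and 1761 to 2215 in wild-type forebrain, and the neuronal markers highest, 2208 CPM against 1551 and 1708 to 1977. None of these markers passed the test between knockout and wild type, and their part in the value of Sema3a was not tested.

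Slit2 and its receptor Robo2 were next. Slit2 had 60.1 and 74.4 CPM in wild-type and 84.9 and 91.0 in knockout forebrain (0.39 ± 0.088 SE, adjusted p = 0.391), with both knockout pools above wild type. Robo2 had 78.8 and 65.7 against 58.4 and 52.5 CPM (-0.38 ± 0.094 SE, adjusted p = 0.543), with both knockout pools below. With no filter on low counts the adjusted p was 0.000311 for Slit2 and 0.00563 for Robo2, and Sema3c (0.00545), Plxna2 (0.00439) and Plxna4 (0.000939) passed too. The share of all genes passing in that setting is not given here. Without knockout forebrain replicate 2, the pool that stands apart is left alone to represent the knockout. The log2 fold changes were then -1.06 for Sema3a, -1.13 for Sema3c, -0.93 for Slit3, -0.84 for Plxna4 and 0.30 for Dcc. How all genes moved in that setting is not given here. The other genes with an unadjusted p under 0.05 were Plxna4 (-0.54), Plxna2 (-0.33), Robo1 (-0.22), Unc5a (0.87), Sema6b (0.61), Dcc (0.21) and Plxnb1 (0.15). The other genes well above midbrain in wild-type forebrain had log2 fold changes between knockout and wild type of 0.0071 ± 0.073 SE for Efnb1, -0.0016 ± 0.096 for Efnb2 and -0.19 ± 0.11 for Sema5a. The log2 fold changes of all 67 genes tested ran from -0.80 for Sema3a to 0.87 for Unc5a.

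The 2 knockout effects were also compared with each other. Of the 67 genes, 0 passed this test in edgeR, against 1 of all genes tested (0.0065%). An unadjusted p under 0.05 was found for 9 (13.4%), against 4.02% of all genes, and DESeq2 and limma-voom also called 0. Robo2 had the smallest p: its level was 47.9 and 46.2 CPM in wild-type and 58.9 and 57.0 in knockout midbrain, above wild type there and below it in forebrain (difference of log2 effects 0.68 ± 0.14 SE, unadjusted p = 0.000264, adjusted p = 0.86). Plxna4 had 40.7 and 36.2 CPM in wild-type and 21.5 and 31.8 in knockout forebrain, and 38.8 and 37.1 against 46.9 and 43.5 in midbrain (0.79 ± 0.21 SE, adjusted p = 0.996). Sema3a differed by 0.92 ± 0.25 SE (adjusted p = 0.996), with midbrain levels of 12.1 and 14.4 CPM in wild type and 13.1 and 15.6 in the knockout. Without knockout forebrain replicate 2, which leaves the pool that stood apart, the difference was 1.18 for Sema3a and 1.09 for Plxna4. With no filter on low counts, Robo2 (adjusted p = 0.000161), Sema3a (0.00163), Sema3c (0.0226), Plxna2 (0.00638) and Plxna4 (0.000539) passed the test. How many of all genes passed in that setting is not given here.

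**Figure D4:**
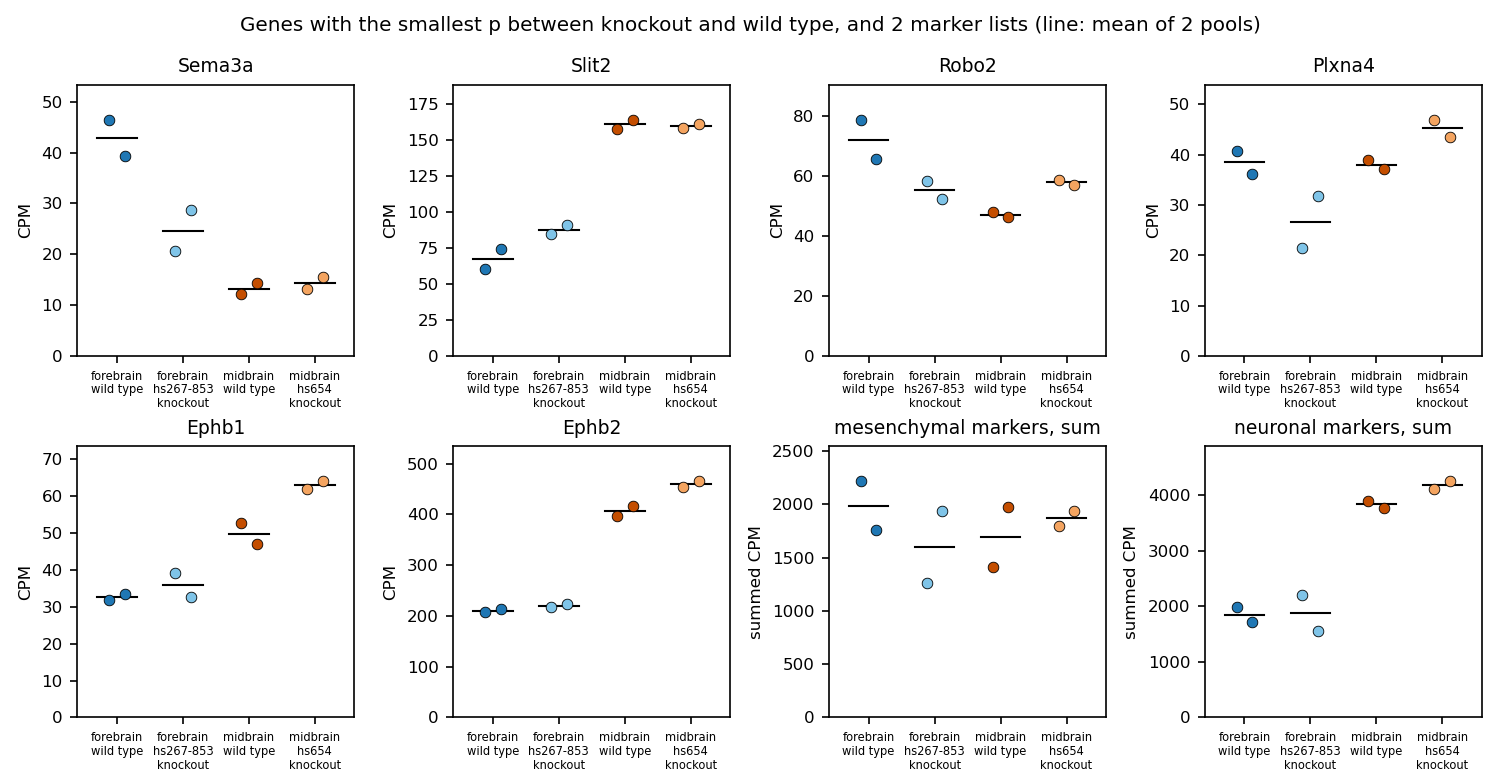
Level in CPM of 6 of the genes with the smallest p in the knockout comparisons or in their difference, and the summed level of 10 mesenchymal and 10 neuronal markers, in each of the 8 libraries. Each point is 1 pool and each line the mean of 2, on linear axes from 0; Sema3a runs from 39.3 to 46.4 CPM in wild-type and from 20.5 to 28.7 in knockout forebrain, and the forebrain pool with the lowest Sema3a also has the lowest mesenchymal sum.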

How the data were processed

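RNA was sequenced from 8 pools, 2 for each of 4 groups. The deposited tables hold whole-number read counts per gene as the authors made them, and the submitters' processing notes name STAR, HTSeq, DESeq2 and mm10 without versions or roles. The annotation and strand setting were not given in the sources used here. Rows that name no gene stayed out of library sizes and tests, and the largest of them, reads in no annotated feature, made up 55.4 to 58.9% of gene, ambiguous and no-feature reads together.

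From these counts, edgeR 4.0.16 (R 4.3.3) fitted 1 quasi-likelihood model to all 8 libraries after filterByExpr and TMM scaling, with 4 residual degrees of freedom. Contrasts were forebrain against midbrain in wild-type and in knockout libraries, each knockout against wild type, and the difference of the knockout effects. P-values were two-sided and adjusted by Benjamini and Hochberg over 15383 genes, with a threshold of 0.05. The script was tested on simulated data. Alternatives were RLE scaling, no filter, DESeq2 1.42.0, limma-voom 3.58.1, a replicate block, leaving out each library, and fitting only the 4 libraries compared.

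Up to 2 genes a family, those with the largest tissue difference past the threshold and a wild-type mean of at least 1 CPM, are given in full, and the 3 genes with the smallest p in each knockout comparison. The members and lists were chosen with earlier results of these data known. Gene positions and promoter windows come from RefSeq on GRCm38.p6.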

Additional observations from a re-analysis of the deposited data

How the results depend on the processing

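The wild-type tissue counts stayed within 1.5 times under all 14 alternatives. Genes higher in forebrain numbered 13 in the main fit and 19 with no filter on low counts, and lower ones 30 and 31. In the knockout libraries the number of genes higher in forebrain ran from 6 to 12 when 1 library was left out, with 6 without knockout midbrain replicate 1 and 7 without replicate 2. Between hs267-853 knockout and wild-type forebrain, genes called higher numbered 1 with no filter on low counts and 0 to 1 when 1 library was left out. Genes called lower numbered 5 with no filter, 1 in DESeq2 and 0 to 4 when 1 library was left out, the highest without knockout forebrain replicate 2. For the difference of knockout effects, 5 genes were higher with no filter and 0 to 2 when 1 library was left out. The cause was not tested, and the shares of all genes called in these alternatives are not given here. No alternative called an axon guidance gene between hs654 knockout and wild-type midbrain. A replicate block fitted to only those 4 libraries called 9 genes among all tested and 0 axon guidance genes. The tissue difference of Unc5a in the knockout libraries, near 0, changed sign in limma-voom (0.035), with the replicate block (0.0023) and when 1 library was left out (-0.28 to 0.28), and that of Plxna2 when 1 library was left out (-0.18 to 0.052). Replicates with the same number did not deviate together (correlations across genes of -0.019 to 0.043 in 3 comparisons and -0.025 in the other). With 2 pools a group this cannot exclude that they were paired, which the labels do not say. The replicate block gave 13 genes higher and 31 lower in wild type, 11 and 28 in the knockout libraries, and 0 in the other comparisons. With 2 pools a group and totals down to 9051632 counts, low genes such as Epha6 and Unc5a rest on few counts, and 2 genes could not be tested.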
